A study of Mus musculus with 25 samples.

Results

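Among 2396 open regions that the authors listed as Notch-dependent in mK4 cells, 490 peaks (20.5%) overlapped at least 1 site of every N1 complex mapped in the same study. They were chosen by that overlap alone, at 1 bp or more with a region of each of the N1/RBP, N1/MAML, N1/p300 and N1/N1 lists, on the 19 autosomes and the X chromosome. Membership in those 4 lists and in the Notch-dependent list therefore describes the choice and is no result. The series holds 25 sequencing libraries of mK4, a mouse cell line from embryonic kidney mesenchyme. SpDamID splits Dam, a bacterial enzyme that methylates adenine in GATC, into inactive pieces carried by 2 proteins, and marks GATC sites where those proteins come together. The libraries used here are N1-D/RBP-AM-Ert2, N1-D/MAML-AM-Ert2 and N1-D/p300-AM-Ert2 with 3 each, N1-D/N1-AM-Ert2 with 2, Mef2c-D/MAML-AM-Ert2 and Mef2c-D/p300-AM-Ert2 with 1 each, and the Dam control they were scored against with 3. FAIRE, which recovers open chromatin, has 3 N1wt libraries, 1 N1wt input and 3 control libraries, and ChIP has 1 N1 library, taken through a myc tag, and 1 input. The labels give no clone, passage, ligand treatment or time point, and no promoter for the fusions. All carry the strain label CD1 except 1 N1/N1 library (CD2) and the Mef2c/MAML library (CD3). Cell type markers could not be looked at, since no expression values were analysed.

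Notch receptors are cleaved when a neighbouring cell presents a ligand, and the freed intracellular part enters the nucleus. There it joins RBP, the DNA-binding protein of the pathway, and MAML, a co-activator that binds the surface both form together. MAML in turn recruits p300, an acetyltransferase of histones that is a common marker of active enhancers. Complexes can also assemble side by side on paired DNA sites, and the N1/N1 pairing was made to read out such dimers. In the embryonic kidney, Notch signalling is known for directing early nephron cells towards proximal fates. Mef2c, a MADS-box factor best known in muscle, binds DNA by itself and was paired with the same co-activators.

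Every value below is the authors' score for a region in a list that covers its libraries jointly, so no value has an error between replicates and library depth is unknown. A SpDamID score is a whole number for the complex over the Dam control. Its scale is not stated in the labels or headers, so levels are set against the ranks within each list, and the highest score of a list inside a peak stands for that peak. Intervals are exact 95% intervals, Clopper-Pearson for shares and order statistics for medians, and cover counting error over regions only. Regions are not replicates of a condition, so each class of regions has its own interval, and differences between classes are given with neither an interval nor a test. All positions are of build mm9. No gene annotation of that build was used, so no peak is assigned to a gene.

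In most of the peaks, 1 DNA fragment was listed for all 4 N1 complexes. In 441 of the 490 peaks (90%, 87.0 to 92.5%), 1 fragment with identical ends stood in all 4 N1 lists, and 84 peaks held 2 or more such fragments. The other 49 met the rule only by adding up fragments marked by different complexes. Open regions outside the Notch-dependent list that overlapped all 4 N1 lists had a common fragment in 2498 of 2781 cases (89.8%, 88.6 to 90.9%), nearly the same share. The rule required all 4 lists within a peak, and the 490 peaks held a median of 1 or 2 regions per N1 list. A common fragment is thus favoured by the choice, and these shares are descriptions. The peaks held 530 distinct common fragments with a median length of 512 bp, against 521 bp for all 5730 in the genome. Of 535 pairings of a peak with a common fragment, 313 had the fragment wholly inside the peak and 219 had it crossing an edge. The centre of the peak lay in a common fragment in 296 of the 441 peaks (67.1%).

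Marks of the N1 complexes were centred on the open region. N1/p300 covered the centre of 77.8% of the 490 peaks, N1/N1 of 76.5%, N1/RBP of 74.3% and N1/MAML of 70.2%. At 1000 bp from the centre these shares were 17.3% for N1/p300, 23.9% for N1/N1, 21.8% for N1/RBP and 7.35% for N1/MAML. N1/MAML was thus the narrowest and N1/N1 the widest at that distance, and their lists also have the shortest and longest median region of the 4, 517 bp and 754 bp. At 3000 bp, 3.47 to 8.67% of the peaks were covered by an N1 list. Overlap in the peak was required by the rule, so the high centre is a description.

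**Figure D1:**
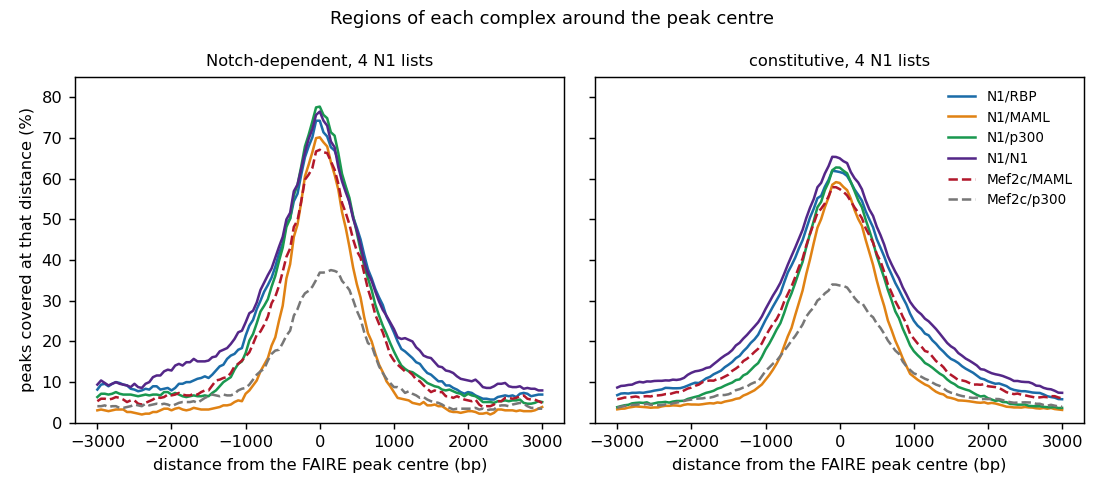
Share of FAIRE peaks (vertical axis, %) covered by a region of each SpDamID list at each distance from the peak centre (horizontal axis, bp), for the 490 Notch-dependent peaks in all 4 N1 lists (left) and for the 2781 constitutive peaks in all 4 N1 lists (right). Solid lines are N1 complexes and dashed lines Mef2c complexes. N1/p300 covers the centre of 77.8% of the peaks on the left and 62.7% of those on the right. Every other list also covers fewer centres on the right, where the peaks are longer (median 1203 against 992 bp).

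Taking the complexes by role, the DNA-binding pairing N1/RBP had a median highest score of 544 in the peaks (531 to 555), from 22 at the lowest to 833 at the highest. N1/MAML, the co-activator pairing, had a median of 535.5 (518 to 563) and the widest middle range, with quartiles at 378.25 and 639.75. N1/p300, the acetyltransferase pairing, had a median of 579.5 (566 to 591), with quartiles at 494 and 642.75. The dimer pairing N1/N1 had a median of 489.5 (476 to 511). Against the whole of its own list, the median peak stood at percentile 89.7 for N1/p300, 89.0 for N1/RBP, 84.7 for N1/N1 and 78.8 for N1/MAML. The rule favours high ranks here, since longer peaks meet more fragments and the highest one was taken. In 298 peaks (60.8%) the best fragment reached the list median for all 4 complexes, and in 79 (16.1%) it was at or above percentile 90 in all 4. N1/MAML was the lowest ranked of the 4 complexes in 197 peaks (40.2%), N1/N1 in 125, N1/RBP in 110 and N1/p300 in 58.

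The same complexes were then compared with those in constitutive peaks, meaning total FAIRE peaks that overlap no Notch-dependent one. Of 17083 constitutive peaks, 2781 (16.3%) also overlapped all 4 N1 lists. The N1/p300 medians were the farthest apart. The median was 579.5 in the Notch-dependent peaks (566 to 591) and 513 in the constitutive ones (506 to 520), a difference of 66.5 score units, which was 43.5 with only scores from the list median up. N1/RBP had a median of 544 (531 to 555) in Notch-dependent and 522 (517 to 527) in constitutive peaks, 22 units apart. N1/MAML medians were 535.5 (518 to 563) and 520 (512 to 528), and N1/N1 medians 489.5 (476 to 511) and 487 (478 to 495), 15.5 and 2.5 units apart. The N1/RBP and N1/MAML differences were 19 and 1 units within the quartiles of total FAIRE score of the 490, and 35.5 and 22.5 units within the quartiles of their length. Over the peaks that had them, Mef2c/MAML medians were 569 (556 to 579) and 560 (556 to 565), and Mef2c/p300 medians 378 (352 to 397) and 381 (370 to 392).

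The N1/p300 difference was also taken among peaks of like length or total FAIRE score. The 490 peaks were shorter than the constitutive ones, with medians of 992 and 1203 bp. They nevertheless held more N1/p300 regions, a median of 2 per peak against 1, which gives the highest score more regions to come from. N1/p300 covered a median of 61.6% of the peak in the 490 and 48.9% in constitutive peaks. With the overlap-weighted score the difference was 59.6 units, and the number of regions was not matched. Among peaks between 808.5 and 1342.75 bp, the quartiles of the 490, the N1/p300 difference was 76 units, and among peaks within the quartiles of total FAIRE score it was 54. Both FAIRE lists come from N1wt cells, while SpDamID was done in cells that carry the fusions. The part that this plays was not tested. Earlier results of these lists, not shown here, had N1/p300 marking the Notch-dependent list more often than other open regions. The N1/p300 difference in level is not independent of that.

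**Figure D2:**
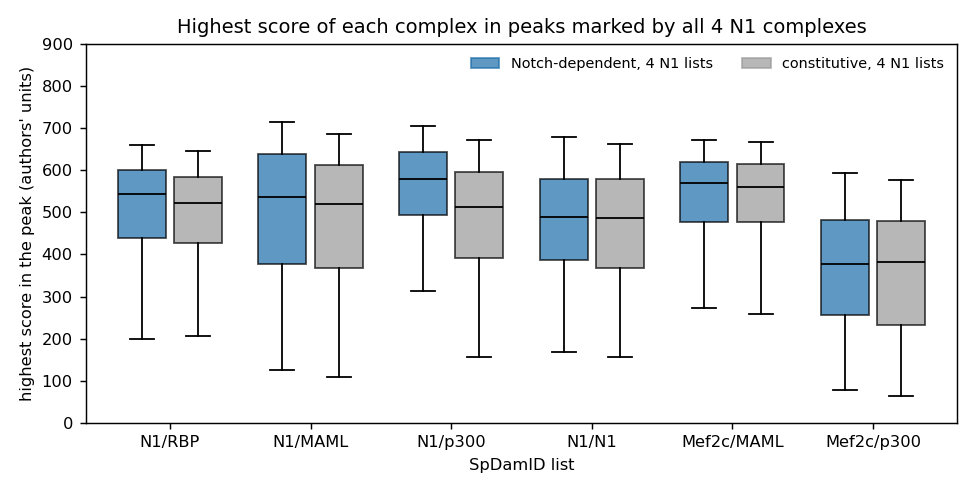
Highest score of each complex per peak (vertical axis, the authors' units) for the 490 Notch-dependent peaks (blue) and 2781 constitutive peaks (grey) in all 4 N1 lists; boxes are quartiles with the median, whiskers the 5th and 95th percentiles, and Mef2c boxes hold only peaks with such a region. The N1/p300 medians of 579.5 and 513 are the farthest apart of the 6.

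Across the 490 peaks, N1/RBP scores followed N1/N1 (Spearman's rho = 0.60) and N1/N1 followed N1/p300 (0.58) more closely than N1/MAML followed N1/RBP (0.30). N1/MAML scores also ran with those of Mef2c/MAML (0.42 over 456 peaks), whereas N1/p300 and Mef2c/p300 did not run together (0.07 over 289 peaks). In the constitutive peaks these last values were 0.50 and 0.25. There the values between N1 complexes were 0.56, 0.58 and 0.27 in the order given above, close to those of the 490. In the 490, Mef2c/p300 also ran weakly with the other N1 complexes, at 0.17 for N1/RBP, 0.11 for N1/N1 and -0.07 for N1/MAML. Its low value with N1/p300 was thus not particular to that pair. Mef2c/p300 ran more closely with Mef2c/MAML (0.36 over 280 peaks). N1/MAML ran more closely with N1/p300 (0.52) than with Mef2c/MAML. All lists share the Dam control and the map of fragments, so these are descriptions and carry no p. Over the 4 N1 complexes, Spearman's rho of the score with the total FAIRE score ran from 0.16 (N1/p300 and N1/RBP) to 0.30 (N1/N1). With Mef2c/MAML it was 0.07 and with Mef2c/p300 0.0011.

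**Figure D3:**
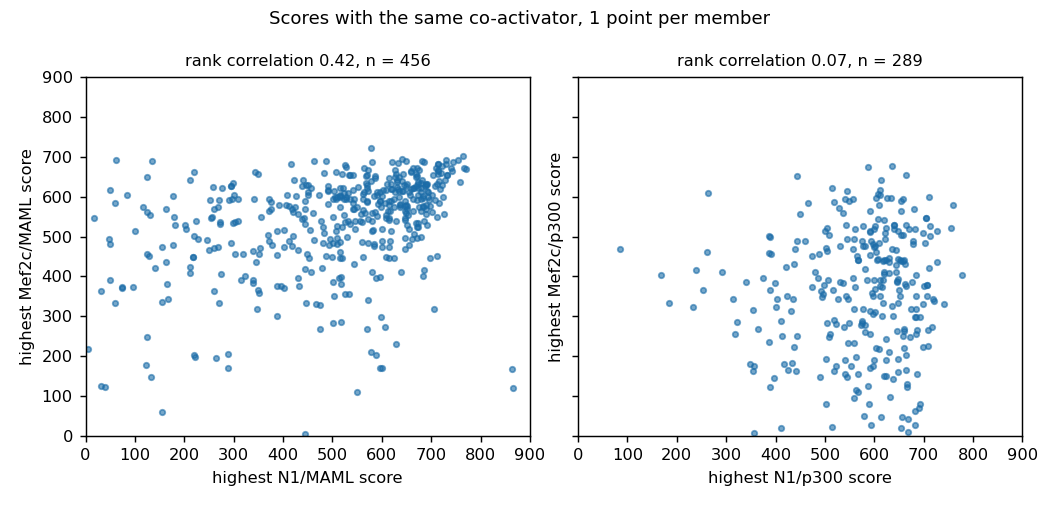
Highest Mef2c score (vertical axis) against highest N1 score (horizontal axis) with the same co-activator, both in the authors' units, 1 point per Notch-dependent peak in all 4 N1 lists. MAML (left) has a rank correlation of 0.42 over 456 peaks and p300 (right) 0.07 over 289.

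Nearly all of the peaks also carried Mef2c marks, which the rule did not use. Mef2c/MAML, a complex without any Notch protein, lay in 456 of the 490 peaks (93.1%, 90.4 to 95.1%), against 43.4% of all 2396 Notch-dependent peaks. Mef2c/p300 lay in 289 (59.0%, 54.5 to 63.4%), against 26.3%. Both Mef2c lists were present in 280 peaks (57.1%), against 21.6% of all Notch-dependent peaks, and at least 1 of them in 465 (94.9%), against 48.2%. Mef2c/MAML was alone in 176 peaks, Mef2c/p300 alone in 9, and 25 peaks (5.10%) had neither. On the level of single fragments, 406 peaks had a fragment common to all 4 N1 lists and Mef2c/MAML, and 240 had one in all 6 lists. Among the peaks with each mark, Mef2c/MAML ranked higher in its list than N1/MAML in 281 of 456. Mef2c/p300 ranked higher than N1/p300 in 67 of 289. The lists differ in size, so these ranks are not on a like scale. On the chromosomes used, Mef2c/MAML had 50380 regions and N1/MAML 16545, and Mef2c/p300 had 28757 and N1/p300 22358. Neither the ranks nor the shares above were adjusted for list size.

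The share with Mef2c marks ran with the number of N1 lists. Mef2c/MAML lay in 497 of 1059 Notch-dependent peaks with 1 to 3 N1 lists (46.9%, 43.9 to 50%) and in 88 of 847 with none (10.4%, 8.42 to 12.6%). For Mef2c/p300 the shares in those classes were 28.0% and 5.43%. Median length also ran in this order, with 992 bp in the 490, 835 bp with 1 to 3 N1 lists and 724 bp with none. Among peaks within the length quartiles of the 490, the Mef2c/MAML shares in these classes were 93.9%, 45.2% and 10.9%. Those for Mef2c/p300 were 58.2%, 27.8% and 5.86%. Constitutive peaks in all 4 N1 lists had shares close to those of the 490, 95.8% for Mef2c/MAML (94.98 to 96.5%) and 61.6% for Mef2c/p300 (59.8 to 63.4%). All constitutive peaks had 40.4% and 21.4%, so in both kinds of open chromatin the shares were higher in peaks with all 4 N1 complexes than over the whole list. The Dam control is common to all 6 SpDamID lists, and each Mef2c list comes from 1 library. How much of the sharing that control gives was not tested.

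The 25 peaks without a Mef2c mark were shorter than the 280 with both and had lower FAIRE scores. Median lengths were 854 and 1025.5 bp, and median Notch-dependent FAIRE scores 125.93 and 175.485. Their median N1/MAML score was 423, against 548 in peaks with both Mef2c marks. N1/N1 medians were 457 and 521.5, N1/p300 medians 568 and 597, and N1/RBP medians 546 and 555. Scores did not rise throughout with Mef2c marks. In the 176 peaks with Mef2c/MAML alone, N1/N1, N1/p300 and N1/RBP medians were 439, 553 and 488, below those of the 25. Their N1/MAML median was higher, at 542.5. The 9 peaks with Mef2c/p300 alone had 550, 624 and 565 in the same order, and 329 for N1/MAML. These medians are given without intervals. The best ranked of the 25 apart from a stretch on chromosome 2 described below was chr1:83087791-83088538. Its N1/RBP, N1/MAML, N1/p300 and N1/N1 scores were 612, 613, 700 and 697, but no single fragment in it was common to all 4. Next came chr9:43834163-43834877, with scores of 660, 574, 677 and 659 for the same complexes on 1 common fragment. The one after was chr14:66310277-66310770, with 559, 605, 693 and 581 at a Notch-dependent FAIRE score of only 53.45.

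**Figure D4:**
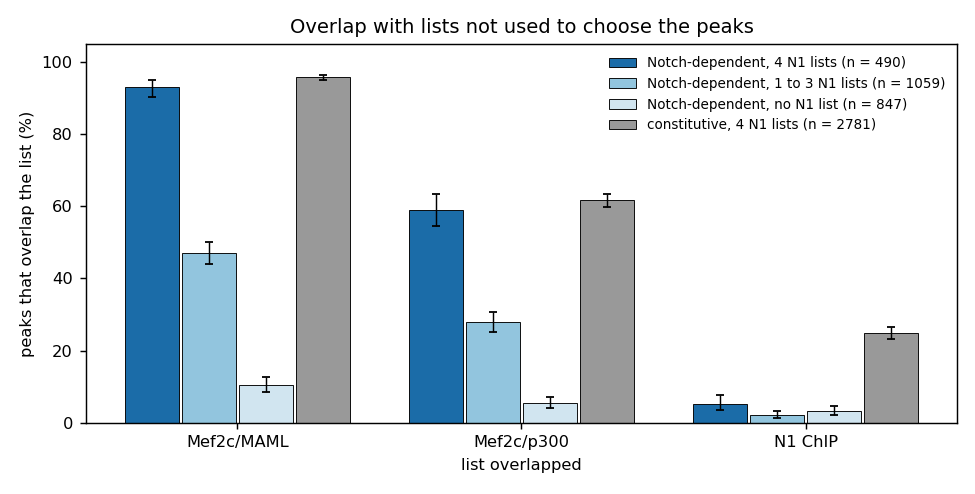
Share of peaks (vertical axis, %) that overlap the Mef2c/MAML, Mef2c/p300 and N1 ChIP lists, none of which was used to choose them, in 4 classes of FAIRE peak. Bars carry exact 95% Clopper-Pearson intervals; Mef2c/MAML lies in 93.1% of the 490 Notch-dependent peaks in all 4 N1 lists and in 95.8% of the 2781 constitutive ones, and N1 ChIP in 5.31% and 24.8%.

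N1 ChIP, the other readout that the rule did not use, lay in few of the peaks. It overlapped 26 of the 490 (5.31%, 3.50 to 7.68%), against 3.21% of all Notch-dependent peaks. Only 0.408% of the 490 did so with ChIP regions whose input was off a fixed value of 0.1, and 2.86% with ChIP regions of 300 bp or more. The share was 2.17% (1.38 to 3.24%) in Notch-dependent peaks with 1 to 3 N1 lists and 3.31% (2.21 to 4.74%) in those with none. In constitutive peaks in all 4 N1 lists it was 24.8% (23.2 to 26.4%), against 20.6% of all constitutive peaks, and 17.9% (15.7 to 20.2%) among those between the length quartiles of the 490. In that length range the 490 gave 9 of 244 peaks (3.69%, 1.70 to 6.89%) and the other Notch-dependent peaks 3.06% (1.90 to 4.63%), 0.632 points apart. Over all lengths, the difference of the 490 from constitutive peaks in all 4 N1 lists was -19.5 points, against -12.8 with ChIP regions of 300 bp or more and -5.88 with input off the fixed value. Members with ChIP had a median length of 1404 bp and those without 976 bp. Their N1/MAML medians were 576.5 with ChIP and 534 without, N1/N1 medians 502.5 and 488, N1/RBP medians 551 and 543.5, and N1/p300 medians 584.5 and 578. The 26 peaks held 41 ChIP regions, of which 38 had the fixed input value of 0.1, and ChIP has 1 library.

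All but 7 of the peaks were also in the total FAIRE list (483, 98.6%), against 94.7% of all Notch-dependent peaks. The Notch-dependent score of the 490 had a median of 163.545 and their total score a median of 251.24. Notch-dependent peaks in 1 to 3 N1 lists had medians of 134.11 and 186.285, so the 490 were also the stronger FAIRE peaks. In 88 of the 483, the Notch-dependent score exceeded the total score. The labels and headers do not state how Notch dependence was decided.

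The leading 4 of the 490, ranked by their mean place over the 4 N1 complexes, lay together within 6485 bp on chromosome 2, at chr2:26314689-26321173, and were the only Notch-dependent peaks within 50 kb of the first. The first, chr2:26319132-26319842, had N1/RBP, N1/MAML, N1/p300 and N1/N1 scores of 824, 863, 830 and 847, all on the fragment chr2:26318173-26319926. It had a Mef2c/MAML score of only 167 and no Mef2c/p300 region. The second, chr2:26320159-26321173, scored 795, 865, 795 and 851 for the same N1 complexes and 119 for Mef2c/MAML. The next, chr2:26314689-26316630, scored 833, 852, 817 and 838, and the last, chr2:26317562-26318122, scored 705, 792, 751 and 761, both without a Mef2c region. For every N1 complex the 3 highest scores among the 490 lay in this stretch, at places 1 to 3, while Mef2c marks were weak or lacking.

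The same stretch held the 3 highest ChIP ratios among the 490. ChIP to input ratios reached 304.92 in the peak at place 2, 163.253 at place 3 and 65.7895 at place 4. Place 1 had no ChIP region. These ratios rest on low input values. At place 2 the ChIP signal was 9.23 over an input of 0.0303. At place 3 it was higher, 16.3, over the fixed input value of 0.1. The ratio at place 4 came from a region of 38 bp, also at input 0.1. A region of 1104 bp in the same peak had a ratio of 14.47. The highest ratio elsewhere was 47.6471 and the median of the other 23 peaks 14.0625. The Notch-dependent FAIRE score at place 3, 2467.42, was above its total score of 2003.45. Notch1, the gene of the fused N1 protein, is annotated on chromosome 2 in GRCm38.p6, but its mm9 position was not available here. Whether DNA that carries N1 sequence gives part of these values was not tested. Without the stretch, the highest N1/RBP, N1/MAML, N1/p300 and N1/N1 scores among 486 peaks were 733, 770, 778 and 761.

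**Figure D5:**
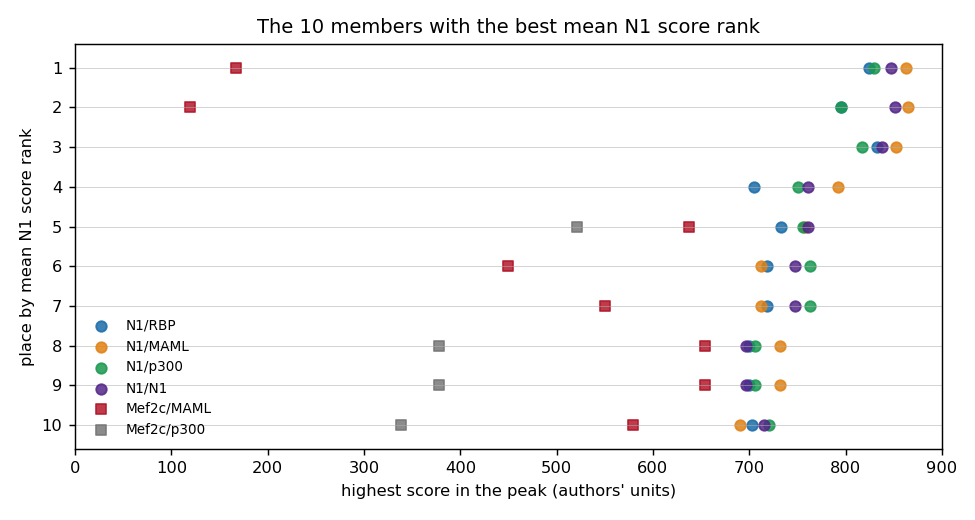
Highest score of each complex (horizontal axis, the authors' units) in the 10 Notch-dependent peaks with the best mean rank over the 4 N1 complexes (vertical axis, place). Circles are N1 complexes and squares Mef2c complexes, and an absent square means no Mef2c region; at place 2 N1/RBP and N1/p300 coincide at 795. N1 scores at the first 3 places are 795 to 865, and the only Mef2c scores among the first 4 are 167 and 119.

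Places 5 to 10 came from 4 other loci. Place 5, chr15:13129703-13153225, was 23523 bp long, with N1 scores of 733, 758, 756 and 761 in the order N1/RBP, N1/MAML, N1/p300 and N1/N1. It was the first of 3 adjoining peaks that together span chr15:13129703-13198138 and are the 3 longest of the 490. In them, N1 regions took up only 613 to 5818 bp per complex, so the overlap says little about where the complexes lay. The second of these, chr15:13153275-13185806, held 4 ChIP regions at ratios up to 47.6471, and the last, chr15:13187688-13198138, had no fragment common to all 4 complexes.

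The pair at places 6 and 7, chr18:20711129-20712159 and chr18:20712328-20713762, met 1 common fragment, chr18:20711755-20712600, which bridges the gap between them. In that fragment N1/RBP had 718, N1/MAML 712, N1/p300 763 and N1/N1 748, against 450 for Mef2c/MAML. The second peak of this pair held a further common fragment, chr18:20712790-20713308, with 644, 702, 719 and 659. Places 8 and 9 on chromosome 9, chr9:43681918-43682362 and chr9:43682365-43683152, likewise shared a single fragment at 700, 732, 706 and 697, with Mef2c/MAML at 654 and Mef2c/p300 at 378. Place 10, chr1:153018492-153019766, had 703, 690, 720 and 715, with Mef2c/MAML at 579 and Mef2c/p300 at 338. The next peak with both Mef2c marks, chr4:150713391-150714226 at place 12, had 644, 730, 726 and 666, with Mef2c/MAML at 681 and Mef2c/p300 at 435.

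The peak with the highest FAIRE score did not have high N1 scores. It was chr17:39979826-39986088, 6263 bp long, with 3100 in both FAIRE lists, the highest value either holds. Whether 3100 is an upper limit of the score was not tested. The peak scored 411 with N1/RBP, 518 with N1/MAML, 517 with N1/p300 and 447 with N1/N1, below the median of the 490 in each case. After it and the chromosome 2 stretch came chr1:43224971-43227100, with a Notch-dependent FAIRE score of 695.20. It had 3 common fragments, N1 scores of 622, 648, 680 and 600, and Mef2c scores of 559 with MAML and 568 with p300. The next, chr18:76323829-76325185 at 606.41, had N1 scores of 660, 628, 659 and 690, against 230 for Mef2c/MAML and no Mef2c/p300 region.

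Among peaks with ChIP away from these stretches, the highest ratio was 27.9216, at chr5:142953101-142954091. Its N1/RBP score was 548 and its N1/MAML score 524, but N1/p300 was 21 and N1/N1 167, below the medians of 342 and 285 over their own lists.

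The peaks were spread over all 20 chromosomes used. They made up 12.2% of the Notch-dependent peaks on chromosome 14 at the lowest and 26.7% of those on chromosome 4 at the highest. Most stood alone: 47 of the 490 had another within 10 kb, in 22 groups, of which 20 were pairs. In all, 12 peaks met a fragment that another of the 490 also met, so these are not separate observations.

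Near the limit of the rule, 7 peaks overlapped their least covered N1 list by under 50 bp, while the median of this lowest overlap was 441 bp. Just inside stood chr1:162450747-162451518, with 1 bp of an N1/p300 region, chr11:112922013-112922893, with 1 bp of an N1/MAML region, and chr7:120328903-120329518, with 7 bp of another. Just outside stood chr3:38175787-38176519, 10 bp from an N1/N1 region, chr8:117857620-117858670, 18 bp from an N1/MAML region, and chr18:36564168-36564915, 22 bp from an N1/RBP region. Of 353 peaks in 3 N1 lists, 261 lacked N1/MAML, which is also the shortest of the 4 lists with 16547 regions. Only 8 of the 353 lay within 100 bp of a region of the missing list, and the median distance was 15928 bp. The shortest of the 490, chr16:91353086-91353481 with 396 bp, had the lowest FAIRE score of its list, 50.16, and an N1/MAML score of 40 beside 523 for N1/p300. The next shortest, chr3:95891706-95892102 with 397 bp and chr12:74880181-74880589 with 409 bp, had FAIRE scores of 55.31 and 53.48 but N1/p300 scores of 659 and 665, above the median of the 490.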

How the data were processed

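Only deposited region lists of the whole series were used: 9 lists, none with a value per library. SpDamID regions come with a whole-number score, deposited by the authors for complex over Dam and kept at confidence 0.999 or above, per the file headers. Short list names were matched to complexes by protein initials. FAIRE peaks carry the deposited score of MACS run in Galaxy, per the file headers. For ChIP the deposited table gives signal for ChIP and input and their ratio, at least 10. That list is named as repeat masked, and its regions have a median length of 137 bp. How far the masking bears on the ChIP overlaps was not tested. Coordinates are mm9, per the submitters' processing notes. Aligner, SpDamID caller and depth: not given in the sources used here.

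Starts of FAIRE peaks were raised by 1 base, and 7 Notch-dependent peaks on other contigs were left out. Overlap was 1 bp or more with both ends included, and its code was tested on simulated data. Python 3.11.15, pandas 2.3.3 and scipy 1.17.1 were used. Members, classes and alternatives were chosen with earlier results of these lists known. Peaks are named by fixed rules: the 10 best mean N1 ranks, the 5 highest ChIP ratios, the 5 highest FAIRE scores, the 5 best ranked without and with both Mef2c marks, the 3 longest and shortest, and 3 on each side of the overlap limit. Motifs and gene lists were not used, since no mm9 sequence or annotation was at hand.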

Additional observations from a re-analysis of the deposited data

How the results depend on the processing

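Of 211 alternative values for 24 results under 12 alternatives, 176 stayed within the count limit or the interval of the reported value (for differences, the interval of the 490 peaks alone) and 35 did not. The number of peaks was 402 with 50% of the smaller region overlapped, 390 by region centre and 431 with long regions left out. These lay within the count limit, a 1.5-fold change. The number was 298, outside that limit, with scores from the list median up. With those scores the medians were 573.5 (N1/RBP), 608.5 (N1/MAML), 613.5 (N1/p300), 542.5 (N1/N1), 593 (Mef2c/MAML) and 441 (Mef2c/p300). Shares there were 88.9% for Mef2c/MAML and 45.6% for Mef2c/p300, 64.6 and 33.2 points above other Notch-dependent peaks. Against constitutive peaks in all 4 N1 lists, ChIP was then -16.4 points, Mef2c/MAML -5.40 points and the N1/p300 median 43.5 units. With overlap-weighted scores the medians in the same order were 490.5, 494.547, 521.574, 432.243, 507.848 and 350. With 50% of the smaller region overlapped, 94.3% of peaks had a common fragment, and 94.6% by region centre. The Mef2c/MAML share was then 67.6 and 68.6 points above other Notch-dependent peaks. With long regions left out, Mef2c/MAML lay in 88.6% and the ChIP difference from constitutive peaks was -16.0 points. The ChIP share was 2.86% with ChIP regions of 300 bp or more and 0.408% with input off the fixed value. The ChIP difference was then -12.8 and -5.88 points from constitutive peaks, and with input off the fixed value 0.0934 points from other Notch-dependent peaks. Within the length quartiles of the 490 peaks, an alternative chosen after seeing the data, the ChIP difference was 0.632 points from other Notch-dependent and -14.2 points from constitutive peaks, and the N1/RBP median difference 35.5 units. Within the total FAIRE score quartiles, the N1/N1 median difference was -16 units. The causes were not tested. Leaving out the chromosome 2 stretch, merging peaks within 500 bp and using autosomes alone moved none of the 24 results outside these limits. The search for motifs was not run. No paired analysis was possible because the lists carry no value per library, and for the same reason no library could be left out. Depth per library is unknown, so how far it limits the lists was not tested.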
